A study of Mus musculus with 4 samples.

Results

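The heterogeneous nuclear ribonucleoproteins (hnRNPs) are nuclear proteins that coat newly made RNA and take part in its splicing, export, stability and translation. Expression of 10 Hnrnp genes was examined here: Hnrnpl, whose messenger RNA (mRNA) was the target of the siRNA in this study, and Hnrnpa1, Hnrnpa2b1, Hnrnpc, Hnrnpd, Hnrnpf, Hnrnph1, Hnrnpk, Hnrnpm and Hnrnpu. They were chosen by name, with earlier results of these data known. Each of the 10 had exactly 1 entry in every expression table, out of 25072 gene symbols listed in the series.

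The 4 libraries came from C2C12, a mouse myoblast line that leaves the cell cycle and fuses into myotubes when serum is reduced. The MB library was total RNA from proliferating myoblasts, taken 24 h before the switch to differentiation medium (DM), and the MT library was total RNA from cells kept in DM for 72 h; both were depleted of ribosomal RNA. The other pair was polyA RNA from cells at 48 h in DM, transfected beforehand with an siRNA against hnRNPL (si-hnRNPL) or with a scrambled control (si-NC). Each condition was 1 library of 1 cell line, so the spread between cultures was not measured and p-values are not reported. Levels are in FPKM (fragment counts scaled by transcript length and by the mapped fragments of the library), with the 95% interval that the quantification program gave in brackets. This interval covers counting and assignment error within a library, not the difference between cultures.

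Hnrnpl encodes a splicing regulator that binds CA-rich RNA and can also act in transcription. The family holds proteins of several kinds: A1, A2/B1 and D carry paired RNA recognition motifs, C binds uridine tracts, F and H1 bind guanosine tracts, K binds cytidine tracts through KH domains, M is a splicing regulator, and U is a scaffold protein of the nuclear matrix. In muscle cells several hnRNPs counteract or assist the splicing changes of differentiation, during which muscle-specific exons are included.

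The oligonucleotides are shown because they define the knockdown comparison. Of the hnRNPL siRNAs of the study, the one printed, si-hnRNPL #1, is marked for RNA-seq in its oligonucleotide list. The capitals mark the seed of the guide strand (bases 2 to 8) and the bases of the sense strand that pair with it.

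si-hnRNPL sense strand: gcgugcuucugUUUACCAu

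si-hnRNPL guide strand: aUGGUAAAcagaagcacgc

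si-NC: uucuccgaacgugucacgu

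The 19 bases of the sense strand were found in the annotated protein-coding transcripts of 1 gene among 22611, Hnrnpl, and in all 8 of its coding transcripts. The control matched 0 genes in full. The site lies at chr7:29599064-29599082 on the plus strand (mm9), in coding exon 4 of Hnrnpl (29598873 to 29599110), and is given in capitals with 6 bases on each side.

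Hnrnpl site, chr7:29599058-29599088: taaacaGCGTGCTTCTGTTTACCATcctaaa

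Hnrnpl has the only full match in the family. In the longest coding transcript of each other gene, the longest run of bases shared with the sense strand was 6 to 12 bases. The longest was in the 3' UTR of Hnrnpk, shown with the shared run in capitals and aligned to the length of the siRNA.

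Hnrnpk, longest shared run: aucUGCUUCUGUUUAaaaa

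The seed complement UUUACCA was searched on the transcript strand, in the longest coding transcript of each gene only. It occurred in 16.8% of the 22611 genes. Within the family it was in Hnrnpl and Hnrnpm, and it was also in Hnrnpll, the closest relative of Hnrnpl. Other transcripts of these genes were not searched, and the Hnrnpa1 transcript used, of 1122 bases, is coding throughout and holds no UTR. A match is a description of the letters and does not show silencing.

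In cells, Hnrnpl limits its own protein by including an exon that brings an early stop codon and sends the transcript to nonsense-mediated decay (NMD). The annotation of Hnrnpl holds 1 NMD transcript among 15, with an exon of 70 bases that is not an exon of any protein-coding Hnrnpl transcript. Transcripts of other types were not compared. The exon lies at chr7:29602354-29602423 inside intron 7 (29600372 to 29603479). It is printed in capitals with 20 bases of intron on each side, because the expression values are per gene and do not separate this form from the coding forms.

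Hnrnpl NMD exon, chr7:29602334-29602443: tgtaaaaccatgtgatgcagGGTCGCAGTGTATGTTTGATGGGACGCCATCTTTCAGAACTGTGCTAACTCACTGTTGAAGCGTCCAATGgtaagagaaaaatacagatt

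The hexamer CACACA, a simple form of the CA-rich RNA that hnRNPL binds, was counted on the transcript strand with overlapping matches included. Hnrnpl holds 4 over its whole gene body, of which 3 lie in intron 7, 894, 323 and 189 bases before the NMD exon. The nearer pair is shown with the hexamers in capitals.

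Hnrnpl intron 7, chr7:29602015-29602174: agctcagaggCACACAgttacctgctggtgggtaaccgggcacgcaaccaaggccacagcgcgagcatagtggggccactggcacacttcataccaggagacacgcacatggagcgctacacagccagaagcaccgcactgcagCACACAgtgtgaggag

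Hnrnpl as a whole was not rich in this hexamer, with 0.291 per kb against a median of 0.981 per kb over 22035 protein-coding genes, of which 86.3% hold it. The other 9 genes ranged from 0 per kb in Hnrnph1 to 0.689 per kb in Hnrnpm. All 10 were therefore below the median of protein-coding genes.

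The widths of the intervals differed among the 4 tables. The interval widths correspond to 59957460 effective fragments in MB, 54440533 in MT, 21341051 in si-NC and 14592480 in si-hnRNPL, where an effective fragment is 1 independently assigned fragment under counting error alone. For the 10 genes they correspond to 1119 to 32979 effective fragments per gene and library. Assignment error also widens the intervals, so these values do not give the sequencing depth. The totals run over 61630 entries each in MB and MT and over 24992 each in si-NC and si-hnRNPL. A single value had no usable interval: Hnrnpd in si-hnRNPL was listed at 19.98 FPKM with the status FAIL, the only such entry of that table. The cell type label reads C2C12 myoblasts for all 4 libraries, while the titles call 3 of them MT, and the 6 myotube markers summed to 112 FPKM in MB and to 1407 FPKM or more in the other 3 libraries. Of the markers of other cell types, those of fat, endothelial and blood cells were at or near 0 in all 4 libraries, with no value above 0.0446 FPKM, and the neuronal tubulin Tubb3 ranged from 11.4 to 56.4 FPKM.

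The knockdown target was checked first. Hnrnpl had 95.1 FPKM (92.7 to 97.5) in si-NC and 85.9 FPKM (83.1 to 88.7) in the library labelled si-hnRNPL. The level in the latter was 90.4% of the control (86.7% to 94.2%), a log2 change of -0.14 (-0.20 to -0.09), with all log2 changes taken on FPKM plus a pseudocount of 1. The intervals of these libraries did not overlap, and the gene was lower in the library that carries its siRNA. The difference was small beside a 1.5-fold change, and 23.3% of 11090 genes at or above 1 FPKM in both libraries had a lower log2 change than Hnrnpl. The gene-level tables do not measure hnRNPL protein. The library is called by its label below.

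As a family, the 10 genes were strongly expressed. Their median was 106 FPKM in MB and 63.1 FPKM in MT, and 124 FPKM in si-NC and 119 FPKM in the library labelled si-hnRNPL. In each library 9 of the 10 were above at least 93.2% of the named entries. Hnrnpd, at 3.25 to 24.5 FPKM, was above 61.2% to 86.2% of them, while the other 9 ranged from 38.9 FPKM (Hnrnpm in MT) to 277 FPKM (Hnrnpk in si-NC). Hnrnpk had the highest level of the family in all 4 libraries. In MB it could not be told from Hnrnpf, at 225 FPKM (222 to 227) against 224 FPKM (221 to 226). Hnrnpu and Hnrnpl overlapped in the same way in MB, at 113 FPKM (112 to 115) and 111 FPKM (109 to 113), and so did Hnrnph1 and Hnrnpc.

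**Figure D1:**
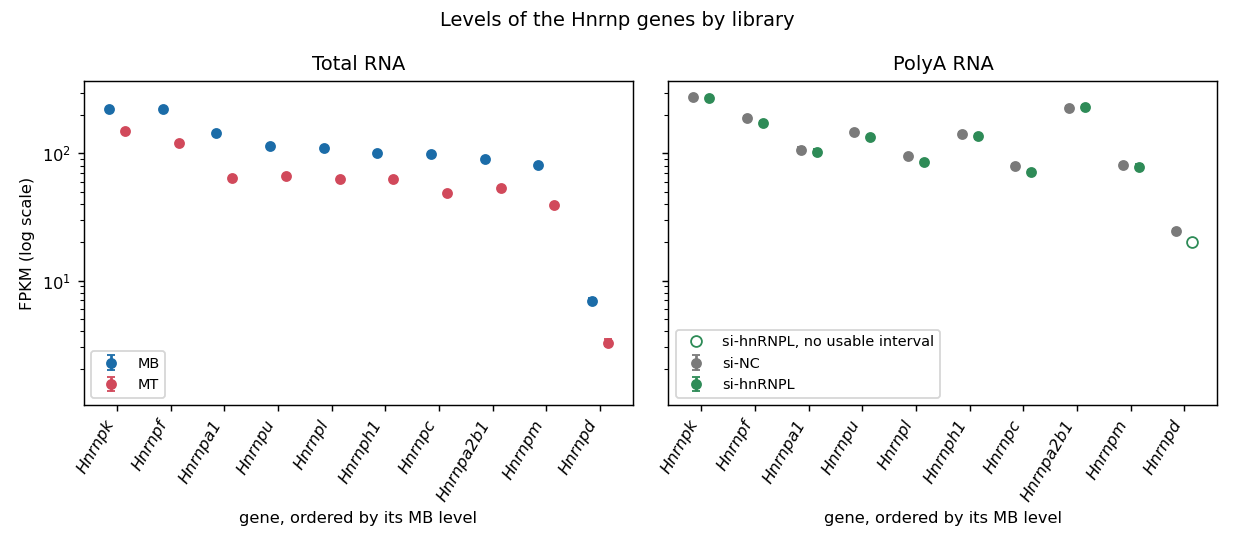
FPKM of the 10 Hnrnp genes on a log scale, in total RNA (MB and MT, left) and polyA RNA (si-NC and si-hnRNPL, right), with genes in the order of their MB level. Bars are the 95% intervals within a library, mostly smaller than the points, and the open circle is Hnrnpd in the library labelled si-hnRNPL, which has no usable interval; every MT point lies below its MB point, while the polyA pairs lie close together.

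All 10 genes were lower in MT than in MB. At a fold of at least 1.5, 9 of 10 were lower and 0 were higher, where 28.5% of 10791 genes were lower and 11.9% higher by the same rule. All 10 had an interval of the log2 change entirely below 0, where 58.3% of genes with an interval lay below 0 and 31.1% above. The median log2 change of the 10 was -0.85, against -0.23 over all genes, and their summed FPKM went from 1197 to 671, or 56.1% of MB. The summed FPKM of all named entries went from 621542 in MB to 296284 in MT, a larger fall in proportion. With the median of all genes subtracted, 5 of 10 stayed past 1.5-fold: Hnrnpa1, Hnrnpm, Hnrnpc, Hnrnpd and Hnrnpf. The same centring put 18.3% of all genes past that line in the lower direction and 19.0% in the higher. In a bulk library a lower level per cell and fewer cells that express the gene cannot be told apart.

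Hnrnpl itself (chr7:29595909-29607285, mm9, as are all positions here) went from 111 FPKM (109 to 113) in MB to 63.0 FPKM (61.8 to 64.2) in MT. This was 56.7% of its MB level (55.4% to 58.1%), a log2 change of -0.81 (-0.84 to -0.77), and the intervals were far apart. The target thus sat in the middle of its family, with 5 genes changed more and 4 changed less. Its log2 change differed from the median of the other 9 by 0.086, and by 0.027 from their summed FPKM. With the median of all genes subtracted its log2 change was -0.581, short of 1.5-fold by less than the half-width of its interval.

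The proteins with paired RNA recognition motifs differed among themselves. Hnrnpa1 (chr15:103070828-103077129), a splicing repressor that moves between nucleus and cytoplasm, went from 146 FPKM (143 to 148) to 63.5 FPKM (61.7 to 65.4), a log2 change of -1.19 and the largest of the 10. Its close relative Hnrnpa2b1 (chr6:51410434-51419893), known for the sorting of RNAs in the cytoplasm, went from 90.4 FPKM (88.7 to 92.2) to 53.6 FPKM (52.5 to 54.7), a log2 change of -0.74. Hnrnpd (chr5:100384954-100407957), or AUF1, which binds AU-rich elements and directs the decay of their mRNAs, went from 6.96 FPKM (6.65 to 7.27) to 3.25 FPKM (3.05 to 3.44), a log2 change of -0.91. The levels of these 3 genes in MT were 43.6%, 59.2% and 46.7% of those in MB.

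The value of Hnrnpa1 is less certain than its interval shows. The entries Gm10052 (chr15:103070863-103075015) and Gm5643 (chr15:103070885-103075386) overlap it, and how the fragments of this stretch were divided among the 3 entries is not known. Gm10052 was listed at 155 FPKM in MB and 55.9 FPKM in MT, both with a low-data status, and Gm5643 at about 0 in both. The 3 entries together went from 301 to 119.4 FPKM, or 39.7% of MB, so the sum was lower in MT as well. Hnrnpa1 held 48.4% of that sum in MB and 53.2% in MT.

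Hnrnpc (chr14:52693055-52723703), whose protein binds uridine tracts and packages nuclear transcripts, went from 98.8 FPKM (97.1 to 100.5) to 48.8 FPKM (47.6 to 50.0), a log2 change of -1.003. Hnrnpm (chr17:33783178-33822403), a splicing regulator, went from 81.7 FPKM (80.1 to 83.3) to 38.9 FPKM (37.9 to 39.9), a log2 change of -1.05. Their MT levels were 49.4% and 47.7% of MB. With Hnrnpa1 they made 3 genes lower by at least 2-fold, where 13.1% of all genes were at the pseudocount of 1. A pseudocount of 0.1 or 0.01 brought in Hnrnpd as well, with log2 changes of -1.08 and -1.10. The share of all genes at these smaller pseudocounts was not computed. The guanosine-tract proteins were less alike. Hnrnpf (chr6:117850358-117875640) went from 224 FPKM (221 to 226) to 119.8 FPKM (118 to 122), a log2 change of -0.89 (-0.92 to -0.86). Hnrnph1 (chr11:50191221-50200030), its relative, went from 101 FPKM (99.2 to 102) to 63.3 FPKM (62.1 to 64.5), a log2 change of -0.66 (-0.70 to -0.63).

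Hnrnpu (chr1:180258431-180267915), the nuclear scaffold protein, went from 113 FPKM (112 to 115) to 66.4 FPKM (65.5 to 67.4), a log2 change of -0.76. Hnrnpk (chr13:58492493-58504704), the cytidine-tract protein, had the smallest change, from 225 FPKM (222 to 227) to 151 FPKM (149 to 153). Its log2 change of -0.57 (-0.60 to -0.55) was the only value short of 1.5-fold, a limit that lies inside its interval. Hnrnpk made up 18.8% of the summed FPKM of the 10 genes in MB and 22.5% in MT, while Hnrnpa1 made up 12.2% and 9.46%. Hnrnpl kept nearly the same share, 9.27% and 9.38%.

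**Figure D2:**
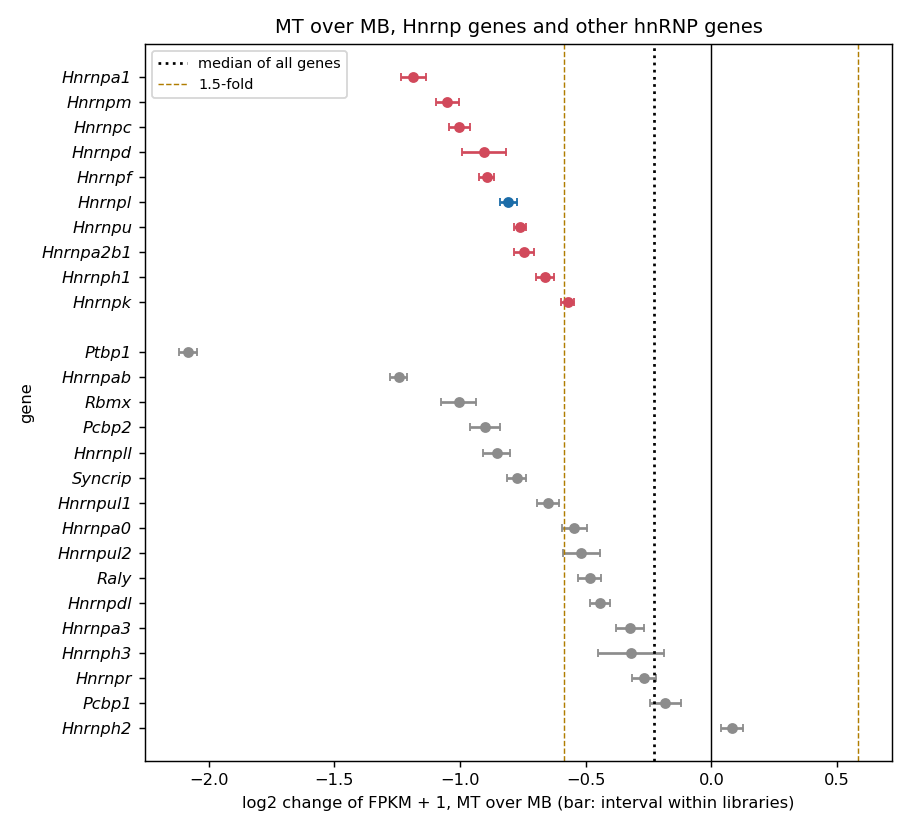
Log2 change of FPKM + 1 in MT over MB for the 10 Hnrnp genes (upper block, Hnrnpl in blue, the others in red) and for 16 other hnRNP genes (lower block, gray), each ordered by change. Bars are intervals within the libraries, the dotted line is the median of all genes (-0.23) and the dashed lines mark 1.5-fold; all 10 Hnrnp genes lie left of the dotted line, and Hnrnpl lies sixth from the lowest of its block.

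A list of 16 further hnRNP genes gave a wider spread. In MT, 7 of 16 were lower by at least 1.5-fold and 0 were higher, beside 28.5% and 11.9% of all genes, with a median log2 change of -0.53 and a range from -2.08 to 0.081. The lowest was Ptbp1, the polypyrimidine tract binding protein that represses muscle and neuronal exons, which went from 125 FPKM to 23.0% of that level. Hnrnpab (log2 change -1.24), Rbmx (-1.01) and Pcbp2 (-0.90) were also past 1.5-fold. Hnrnpll, the paralog of Hnrnpl, went from 28.7 FPKM to 53.8% of that level, a log2 change of -0.85 (-0.91 to -0.80). The change of Hnrnpl differed from it by 0.046 (-0.019 to 0.11), an interval that includes 0. Hnrnph2 was the only one of the 16 with a higher level in MT, at 106% of MB.

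Relatives of the same kind did not share 1 value. Beside Hnrnph1, at 62.8% of its MB level in MT, stood Hnrnph2 at 106% (103% to 109%) and Hnrnph3 at 74.8% (66.2% to 84.4%). Beside Hnrnpa1 and Hnrnpa2b1, at 43.6% and 59.2%, stood Hnrnpa0 at 67.7% (65.4% to 70.1%) and Hnrnpa3 at 78.8% (75.7% to 82.1%). The relatives of Hnrnpd showed the same spread, with Hnrnpab at 41.9% (40.9% to 43.0%) and Hnrnpdl at 73.0% (70.9% to 75.2%), on either side of the 46.7% of Hnrnpd.

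The poly(C)-binding proteins, which carry KH domains like Hnrnpk, also differed. Pcbp2 was at 52.5% of its MB level (50.4% to 54.8%) and Pcbp1 at 87.7% (83.9% to 91.6%), with Hnrnpk between them at 67.1%. Hnrnpul1 and Hnrnpul2, which resemble Hnrnpu, were at 63.0% (61.1% to 65.0%) and 64.5% (60.6% to 68.6%), near the 58.6% of Hnrnpu. Raly, a relative of Hnrnpc, was at 71.3% (69.1% to 73.5%) against 49.4% for Hnrnpc. Hnrnpr and Syncrip, a pair of related proteins, were at 82.0% (79.2% to 85.0%) and 57.7% (56.2% to 59.4%).

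Markers of cell state differed between MB and MT as well. The 6 markers of proliferating myoblasts summed to 425 FPKM in MB and 94.8 FPKM in MT, with 5 of 6 lower in MT and Pax7 higher. These counts go by sign alone, and Myf5 was nearly level, at 13.8 FPKM in MB and 13.6 FPKM in MT. The 6 myotube markers summed to 112 and 1407 FPKM, with 6 of 6 higher. Their part in the change of the Hnrnp genes was not tested.

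In the siRNA comparison, 0 of 10 Hnrnp genes passed a fold of 1.5 in either direction, where 0.739% of 11090 genes were lower and 1.11% were higher. The median log2 change of the 10 was -0.099, against -0.011 over all genes. Their summed FPKM was 1372 in si-NC and 1305 in the library labelled si-hnRNPL, or 95.1%. The summed FPKM of all named entries was 413884 and 448696 in the same order. Of the 9 genes with a usable interval, 4 had an interval of the log2 change entirely below 0, and 0 had one above 0. By the same rule 26.7% of all genes were lower and 20.8% higher, so an interval off 0 was common in this pair of libraries.

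The 4 genes below 0 were Hnrnpl, Hnrnpc, Hnrnpf and Hnrnpu. Hnrnpc had 79.9 FPKM (77.3 to 82.6) in si-NC and 71.5 FPKM (68.7 to 74.3) in the library labelled si-hnRNPL, or 89.5% of the control (85.0% to 94.2%). Hnrnpf had 191 FPKM (184 to 198) and 173 FPKM (166 to 179.6), or 90.6% (86.1% to 95.4%). Hnrnpu had 147 FPKM (145 to 149) and 134 FPKM (131 to 136), or 91.0% (88.8% to 93.3%). These percentages are close to the 90.4% of the siRNA target itself.

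The genes whose intervals included 0 lay nearer to the control level. Hnrnpa1 had 107 FPKM (102 to 111) and 103 FPKM (97.9 to 109), and the 3 entries at its locus together were at 101% of si-NC. Hnrnpa2b1 was the only gene with a higher value in the library labelled si-hnRNPL, with 228 FPKM (220.2 to 236) in si-NC and 232 FPKM (224 to 240.4) there. Hnrnph1 had 142 FPKM (136 to 148) and 136 FPKM (130.02 to 142), and Hnrnpk had 277 FPKM (269.8 to 284) and 270.5 FPKM (263 to 278). Hnrnpm, which also carries the seed complement, had 81.4 FPKM (78.0 to 84.7) and 78.7 FPKM (75.2 to 82.2), or 96.7% (91.0% to 102.8%). Hnrnpd had 24.5 FPKM (23.7 to 25.4) in si-NC, and its listed value of 19.98 FPKM gives the lowest ratio of the 10, 81.4%, with no usable interval.

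**Figure D3:**
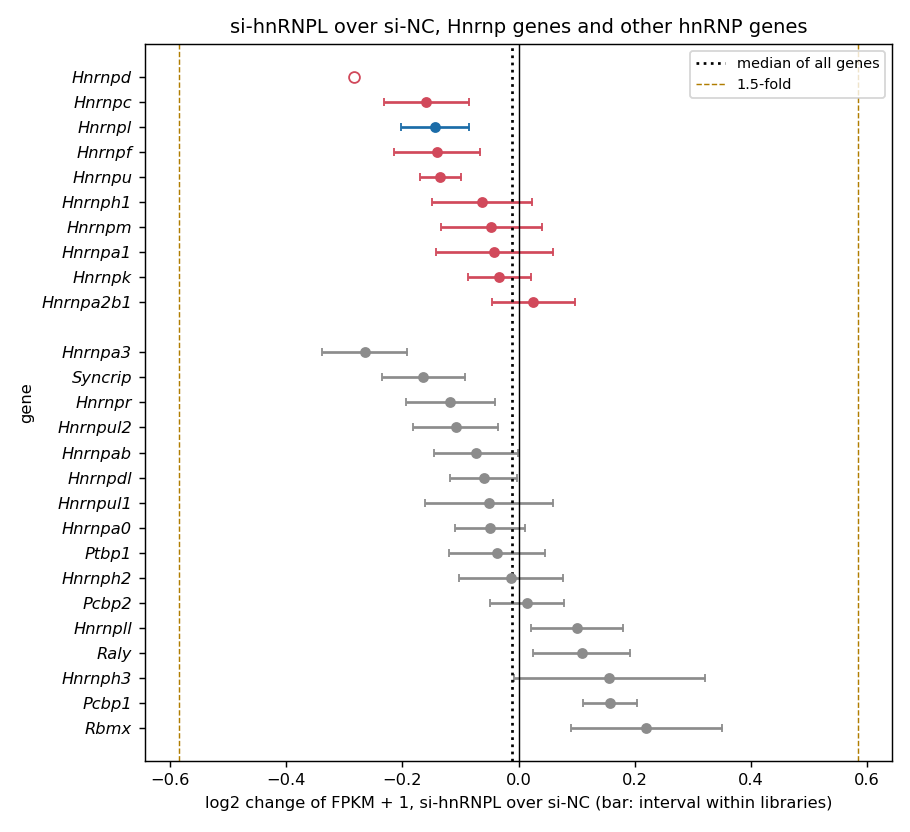
Log2 change of FPKM + 1 in si-hnRNPL over si-NC for the 10 Hnrnp genes (upper block, Hnrnpl in blue) and 16 other hnRNP genes (lower block), with intervals within the libraries, the median of all genes (dotted, -0.011) and 1.5-fold (dashed). All points lie between the dashed lines, Hnrnpl lies in place 3 from the lowest of its block, beside Hnrnpc, Hnrnpf and Hnrnpu, and the open circle for Hnrnpd has no interval.

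Set against its family, Hnrnpl did not stand apart in this comparison. Its log2 change was 0.081 below the median of the other 9 (difference -0.081), and 0.077 below their summed FPKM (difference -0.077). Of the 8 relatives with an interval, 6 gave a difference from Hnrnpl whose interval included 0. For Hnrnpc this difference was 0.014 (-0.079 to 0.11), for Hnrnpf -0.0031 (-0.098 to 0.092) and for Hnrnpu -0.0098 (-0.079 to 0.059). Hnrnpl was lower than Hnrnpa2b1 by a difference of -0.17 (-0.26 to -0.077) and lower than Hnrnpk by -0.11 (-0.19 to -0.031). Hnrnpll had an interval above 0, at 107% of si-NC (101.5% to 114%), and the difference of Hnrnpl from it was -0.24 (-0.34 to -0.15).

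The siRNA pair also differed by gene structure. Over 9752 protein-coding genes the log2 change correlated negatively with exon length (Spearman -0.41) and positively with GC content (Spearman 0.42). This is a description across genes, which share the same 2 libraries. After the medians of length and GC bins were subtracted, Hnrnpl was at -0.12 and the median of the 10 genes at -0.060. Hnrnpu, one of the 4 genes whose interval lay below 0, went from -0.13 to -0.010. Hnrnph1, Hnrnpk and Hnrnpm then turned to values above 0 (0.093, 0.030 and 0.0088). Hnrnpa1 (-0.21), Hnrnpf (-0.20) and Hnrnpd (-0.17) were lower than Hnrnpl. The corrected value of Hnrnpa1 is less certain than the others. It used an annotated exon length of 1126 bases, and that annotation covers only 55.6% of the listed Hnrnpa1 locus. The order of the family in this comparison therefore depended on the correction, and 0 genes passed 1.5-fold with or without it.

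Markers of cell state also differed between si-NC and the library labelled si-hnRNPL. The 6 myotube markers summed to 2196 FPKM in si-NC and 3070 FPKM in the library labelled si-hnRNPL, with 6 of 6 higher. The 6 markers of proliferating myoblasts summed to 202 and 147 FPKM, with 6 of 6 lower. By sign alone this includes Pax7, which was low and nearly level, at 1.065 and 1.025 FPKM. Of the 16 other hnRNP genes, 0 passed 1.5-fold, with a median log2 change of -0.043 and a range from -0.27 (Hnrnpa3, a relative of Hnrnpa2b1) to 0.22 (Rbmx). By intervals, 6 of 16 lay below 0 and 4 above 0, where 26.7% of all genes lay below and 20.8% above. Those below were Hnrnpa3 (83.0% of si-NC), Syncrip (89.1%), Hnrnpr (91.7%), Hnrnpul2 (92.4%), Hnrnpab (95.01%) and Hnrnpdl (95.8%). Those above were Hnrnpll (107%), Raly (108%), Pcbp1 (112%) and Rbmx (118%). Hnrnpa3 and Syncrip had lower percentages than the 90.4% of the siRNA target. The part of the marker differences in these values was not tested.

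The order of the family differed between total RNA and polyA RNA. Hnrnpa2b1 ranked seventh in MT, at 53.6 FPKM, and second in si-NC, at 228 FPKM, and it made up 7.98% of the summed FPKM in MT and 16.6% in si-NC. Hnrnpd was 7.56 times higher in si-NC than in MT, and the other 8 genes were 1.51 to 2.24 times higher. Hnrnpl had the smallest of these ratios, 1.51, and its share was 9.38% in MT and 6.93% in si-NC. The ratio, rank and share of Hnrnpa1 are less certain, because Gm5643 at its locus was about 0 in MT and 71.2 FPKM in si-NC. The 3 entries at that locus together had 119.4 FPKM in MT and 248 FPKM in si-NC. RNA selection, time in DM, transfection and the transcript sets used for quantification cannot be told apart here, so these values are set side by side only.

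**Figure D4:**
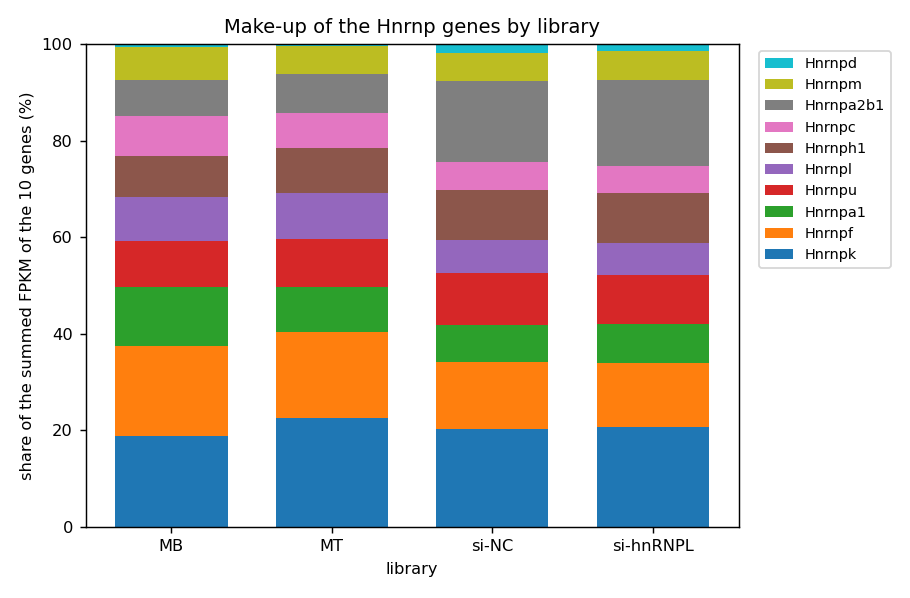
Share of each gene in the summed FPKM of the 10 Hnrnp genes, in percent, for the 4 libraries. Hnrnpk, Hnrnpf and Hnrnpa1 at the base make up 49.6% in MB, and the gray segment of Hnrnpa2b1 goes from 7.56% in MB and 7.98% in MT to 16.6% in si-NC and 17.8% in the library labelled si-hnRNPL.

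By Euclidean distance over the 4 log2 levels, the genes with the pattern most like Hnrnpl among 23408 were Psmd14 (distance 0.10), Angptl2 (0.16), Eif4a3 (0.18), Stt3a (0.18) and Mrpl42 (0.19). Psmd14, a proteasome subunit, had 105 FPKM in MB, 63.8 in MT, 91.1 in si-NC and 84.5 in the library labelled si-hnRNPL, close to the levels of Hnrnpl in each. Within the family the nearest were Hnrnpa1, at a distance of 0.50 and in place 88, and Hnrnpc, at 0.54 and in place 105. The distance rests on 4 libraries and mostly reflects the level.

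Other entries overlapped the loci of 4 of the 10 genes. The locus of Hnrnpk on chromosome 13 overlaps the start of Rmi1, which encodes a partner of the BLM helicase, and Rmi1 was listed at 8.34 FPKM in MB, 7.22 in MT, 13.6 in si-NC and 11.03 in the library labelled si-hnRNPL. These levels were far below those of Hnrnpk. Mir7-1, the microRNA hosted by Hnrnpk, was listed at 0 in 3 libraries and at 9.84 FPKM in MT, a value that rests on about 1 effective fragment. The total RNA tables also held 6 transcribed units without a gene name inside these loci, 3 in Hnrnpd and 3 in Hnrnpf, and 0 in the other 8 genes.

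The units in Hnrnpd and Hnrnpf did not all follow their host genes. In Hnrnpd the unit with the highest value in either library had 3.48 FPKM (2.62 to 4.34) in MB and 1.01 FPKM (0.559 to 1.46) in MT, a log2 change of -1.16, while the other units of that gene had values of 0.14 and 0.60. In Hnrnpf the unit with the highest value in either library had 1.66 FPKM (0.661 to 2.67) in MB and 3.50 FPKM (2.099 to 4.90) in MT, a log2 change of 0.76 (0.051 to 1.46). The remaining 2 units in Hnrnpf had log2 changes of 0.17 and 0.079. In all, 5 of the 6 units had a log2 change above 0, near the 79.3% of all 36780 such units. The intervals of 3 units included 0, those of 2 lay above 0 and that of 1 below. Over all 36780 units, 56.0% had an interval above 0 and 10.1% had one below 0. The 6 units rested on 5 to 303 effective fragments per library.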

How the data were processed

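Total RNA of MB and MT (rRNA-depleted, strand-specific) and polyA RNA of si-NC and si-hnRNPL cells was sequenced, 1 library each. Per the labels and the study's methods, the authors trimmed and mapped reads to mm9 with TopHat2 and estimated abundance with Cufflinks. The deposited values are FPKM with interval bounds and a status. FPKM are not counts, and effective fragments were read only from interval widths, which do not give the sequencing depth. The genes and lists were chosen with earlier results of these data known.

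Changes were log2((FPKM + 1) ratios), computed in Python 3.11.15 with pandas 2.3.3. Interval half-widths were added in quadrature where both statuses were OK. A change of at least 1.5-fold was called, over named genes with FPKM of at least 1 in both libraries. This procedure was run on simulated libraries with counting error alone, which cannot test assignment error or differences between cultures. Named were the 10 genes, any of 16 other hnRNP genes (1 more on that list is not reported here), the 5 genes nearest to Hnrnpl, and entries overlapping the loci. Sequences came from the study's oligonucleotide list and mm9, annotation from GENCODE. Alternatives changed the pseudocount, fold, filter, centring and symbol sums. The correction for length and GC content was run for the siRNA comparison only, not for MT over MB.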

Additional observations from a re-analysis of the deposited data

How the results depend on the processing

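No paired analysis was possible because each condition was 1 library. In MT over MB, 3 of the 10 genes were lower at a fold of at least 2, where 13.1% of all genes were, both with a pseudocount of 1. A pseudocount of 0.1 or 0.01 adds Hnrnpd and makes 4. At 1.5-fold, 5 of the 10 were lower with the median of all genes subtracted. This centring moved the median log2 change of the 10 to -0.62 and the log2 change of Hnrnpl to -0.58. The same centring gave 18.3% of all genes lower and 19.0% higher, against 28.5% and 11.9%. Without Hnrnpd, and with an FPKM minimum of 10, which removes it, the median was -0.81 and the difference of Hnrnpl from the others was 0.020; against their summed FPKM it was 0.027. For the 16 other genes the median was -0.59 with a pseudocount of 0.1 and -0.30 after centring, with 8 and 5 genes lower in place of 7. The share of all genes was not computed at pseudocounts of 0.1 and 0.01. In the siRNA comparison 0 genes passed 1.5-fold under every alternative run, and Hnrnpl ranged from -0.15 to -0.12. Leaving out Hnrnpd, the 2-fold counts at other pseudocounts and summing the entries at the Hnrnpa1 locus were chosen after seeing the data. With no replicates, differences between cultures were not measured. The interval of Hnrnpl in the siRNA comparison spans 86.7% to 94.2% of the control.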
